A study of Mus musculus with 6 samples.

Results

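The erythroid and haem synthesis genes examined here are 31 genes named by symbol. They comprise transcription factors of the red cell lineage, globins, carbonic anhydrases, proteins of the red cell membrane and its cytoskeleton, the enzymes of haem synthesis, and proteins that move iron or break haem down. Both deposited tables, one of genes and one of splice junctions, held rows for 27 of the 31, among 13932 genes in all. Alas2, Slc4a1, Sptb and Epb4.2 were not analysed here. The members had 184 of the 151811 splice junctions. All 27 passed the filter on low counts.

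The RNA came from donor-derived common myeloid progenitors (CMP), the marrow cells that give rise to granulocytes, monocytes, megakaryocytes and red cells. The donor marrow carried a transgene for the splicing factor U2AF1 that doxycycline switches on, as wild type (WT) or as S34F. In both genotypes it also carried rtTA, the protein through which doxycycline acts. Recipient mice were left for more than 6 weeks to engraft and were then fed doxycycline chow for 5 days. Each of the 6 libraries, 3 of each genotype, held cells from a pool of 4 to 5 mice. U2AF1 reads the AG that ends an intron as the smaller partner of U2AF2, and S34F recurs in myelodysplastic syndromes, in which anaemia is common. The genotype was read from the sample titles, since the genotype entry of the sample characteristics gave S34F for all 6.

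Gene counts came to 46827909 to 51862032 for each S34F library and 54727541 to 94562984 for each WT library. Mitochondrially encoded genes took 2.44 to 2.77% of the counts in S34F and 1.27 to 2.04% in WT. The sort gate was Lineage-, c-Kit+, Sca-1-, CD34+, Fcgamma-. Kit, which encodes c-Kit, was at 192, 149 and 175 counts per 1000000 counts (CPM) in S34F and 209, 92.4 and 125 CPM in WT. Cd34 lay between 695 and 904 CPM in every library. Ly6a, which encodes Sca-1, lay between 1.08 and 1.84 CPM. Fcgr3, which encodes a receptor of the Fcgamma group that the gate leaves out, was detected at 33.4, 78.1 and 61.5 CPM in S34F and 38.8, 111 and 61.2 CPM in WT, so RNA of this receptor was not absent from the sorted cells.

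Red cell development runs from a CMP through an erythroid progenitor to cells that fill with haemoglobin. GATA1 and its partner FOG1 (the product of Zfpm1), together with TAL1 and KLF1, switch on the globin genes, the membrane proteins and the haem enzymes. Haem is built from glycine and succinyl-CoA in a chain of enzymes that begins with ALAS2 in red cells and ends with ferrochelatase, which inserts iron, and that iron enters the cell through the transferrin receptor. CMP sit at the start of this path, where some regulators are already transcribed and the late products are scarce. Levels per length, taken as the authors' FPKM in WT (mean ± SD, n = 3), spanned this range. Nfe2 was at 56.0 ± 5.17, Car2 at 41.4 ± 10.003, Urod at 33.6 ± 8.95, Alad at 27.4 ± 5.40 and Tfrc at 27.0 ± 2.99. From Car2 to Tfrc the ranges of mean ± SD of neighbours overlapped. At the other end, Hba-a1 was at 1.12 ± 0.272, Rhag at 0.195 ± 0.0625, Ermap at 0.180 ± 0.187 and Ank1 at 0.105 ± 0.0370, and the value of Hba-a1 shares the uncertainty of globin counts described with those genes.

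No member passed the test of genotype. At an adjusted p under 0.05, edgeR's quasi-likelihood test called 0 of the 27 members, and 0.0% of the 13905 genes tested. DESeq2 also called 0 members, against 0.689% of all genes. Without adjustment, at p under 0.05, Gata1, Klf1 and Nfe2 were lower in S34F and Alad was higher. Among all genes 4.7% were lower and 4.39% higher at that level. The log2 fold change of S34F against WT was below 0 for 23 of the 27 members and for 50.9% of all genes. The median over the members was -0.20, and over all genes tested -0.01. In sorted bulk RNA, fewer cells of a type and less RNA per cell cannot be told apart.

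**Figure D1:**
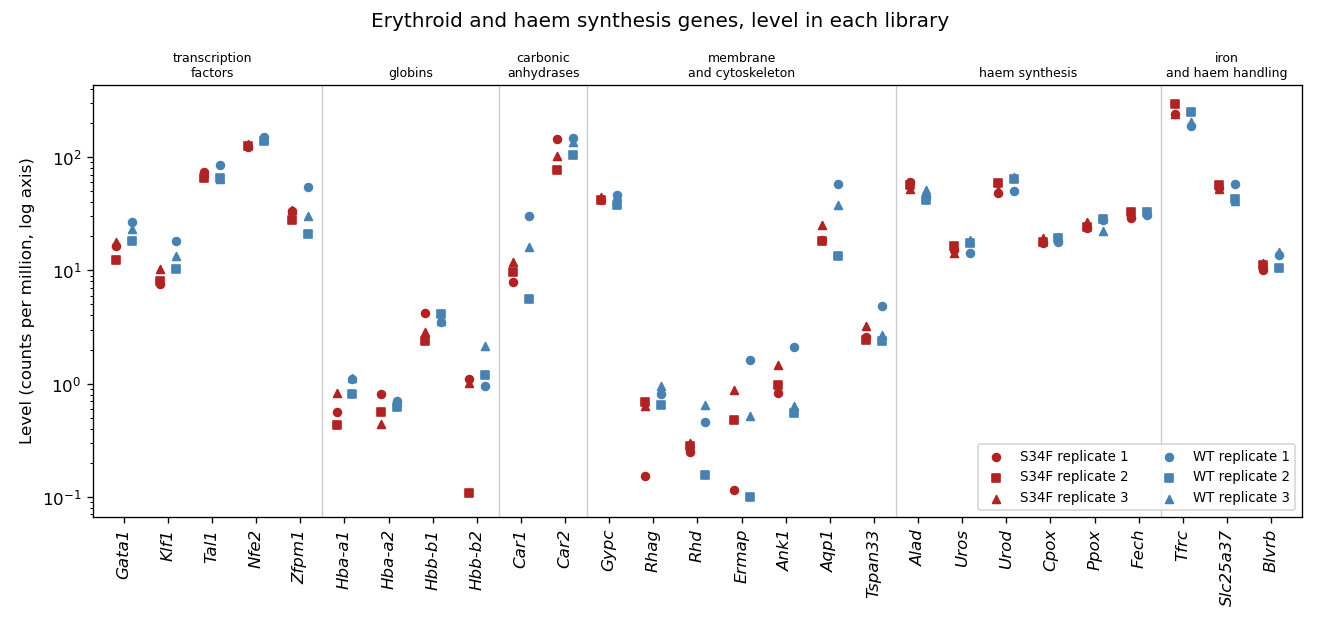
Level of each of the 27 members in each library, in CPM on a log axis, grouped by role; red points are the 3 S34F libraries and blue points the 3 WT libraries, with a marker shape for each replicate number. Gata1, Nfe2 and Alad are the 3 genes in which all points of one genotype lie on one side of the other, and Aqp1 and Car1 show the wide spread among WT libraries.

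Of the 5 transcription factors, all had a log2 fold change below 0, with a median of -0.20 and values from -0.69 to -0.01. Gata1, the master regulator of the erythroid and megakaryocytic lineages (mm9 chrX:7536386-7555197, minus strand), was at 16.5, 12.4 and 17.9 CPM in S34F and 26.6, 18.1 and 23.3 CPM in WT. All S34F libraries were under all WT libraries, although S34F replicate 3 and WT replicate 2 nearly met. The log2 fold change was -0.54 (SE 0.19, 95% interval -0.99 to -0.08), with an adjusted p of 0.538 by edgeR's quasi-likelihood test. Junction reads, a separate count from the same libraries, were scaled to reads per 1000000 junction reads (RPM). Gata1 had 10.99, 8.41 and 12.5 RPM in S34F and 19.1, 11.8 and 14.0 RPM in WT. By this measure S34F replicate 3 was above WT replicate 2.

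Klf1, the activator of adult globin and many other late erythroid genes (mm9 chr8:87425827-87429194, plus strand), had 7.52, 8.02 and 10.3 CPM in S34F and 18.04, 10.2 and 13.5 CPM in WT. Only WT replicate 2 reached into the S34F range. In junction reads the genotypes did not overlap, at 2.11, 2.44 and 2.42 RPM in S34F against 5.42, 3.22 and 3.18 in WT. By this measure Nfe2, Rhag and Fech were also lower in S34F without overlap, and Ank1 and Alad higher. The share of all genes without overlap in junction reads was not computed. The log2 fold change on gene counts was -0.69 (SE 0.23, 95% interval -1.24 to -0.15), with an adjusted p of 0.538 by edgeR's quasi-likelihood test. In the authors' deposited table, Klf1 had the lowest adjusted p of the members, at 0.240, and 0.63% of that table's genes were under 0.05.

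Nfe2, a subunit of the NF-E2 activator that binds globin control regions, varied little within a genotype. It had 122, 125 and 129.99 CPM in S34F and 152, 139 and 144 CPM in WT, with no overlap, and a log2 fold change of -0.20 (SE 0.09). Tal1, which forms a complex with GATA1, had 74.6, 66.1 and 73.1 CPM in S34F and 84.9, 66.0 and 64.1 CPM in WT. The Tal1 groups overlapped throughout, and its 95% interval ran from -0.31 to 0.30 on the log2 scale. Zfpm1 was at 33.4, 27.9 and 34.5 CPM in S34F and 54.4, 21.1 and 30.4 CPM in WT, so the WT libraries alone spanned more than the whole S34F range. The annotation places another gene model, Gm20388, on the same strand over Zfpm1, and reads could have been shared between them.

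The promoters of Klf1 and Gata1 are shown because these 2 genes had the lowest p-values among the regulators. Both run from 250 bases before the start of the gene to the base before it (RefSeq, GRCm38.p6). Capitals mark matches, on either strand, to AGATAA, to AGATAG, to TGATAA or to TGATAG, the site read by GATA factors, or to CCNCNCCC, the CACC box read by KLF1. The Klf1 sequence is chr8:84901732-84901981 on the plus strand and holds 1 GATA match. The Gata1 sequence is chrX:7967911-7968160 on the minus strand and holds 3 CACC box matches.
Klf1: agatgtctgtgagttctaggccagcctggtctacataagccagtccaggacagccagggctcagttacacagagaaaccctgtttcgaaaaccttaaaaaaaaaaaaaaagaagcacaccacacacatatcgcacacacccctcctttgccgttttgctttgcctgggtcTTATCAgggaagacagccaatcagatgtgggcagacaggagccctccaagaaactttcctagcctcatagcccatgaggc
Gata1: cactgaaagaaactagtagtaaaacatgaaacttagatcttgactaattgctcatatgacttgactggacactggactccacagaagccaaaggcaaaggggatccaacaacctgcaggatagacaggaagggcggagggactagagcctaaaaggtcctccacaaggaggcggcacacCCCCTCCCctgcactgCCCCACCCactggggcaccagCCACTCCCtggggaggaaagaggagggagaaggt

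RefSeq promoters were matched to 18 of the members, 23 promoters in all. A GATA match was present in 43.5% of these 23, and in 26.5% of the 32851 promoters of the same length. A CACC box match was present in 47.8% of the member promoters and 45.9% of all. Hba-a1, Hba-a2, Rhag, Rhd and Ermap each had a GATA match, and Aqp1, Tfrc, Alad and Zfpm1 had CACC box matches. None of the 23 held both motifs, against 8.19% of all promoters. Overlapping matches were counted separately. The 23 promoters are not all distinct. The Hba-a1 and Hba-a2 windows hold nearly the same sequence, each with its GATA match, and the windows of Alad and those of Tfrc overlap. A match describes these letters in this window and was not measured as a bound site.

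All 4 globin genes, which encode the chains of adult haemoglobin, had log2 fold changes below 0, and none of them passed an unadjusted p under 0.05. Hba-a1 was at 0.555, 0.431 and 0.832 CPM in S34F and 1.11, 0.816 and 1.13 CPM in WT, with only WT replicate 2 inside the S34F range and a log2 fold change of -0.74 (SE 0.35). Hba-a2 overlapped, at 0.804, 0.561 and 0.436 against 0.707, 0.619 and 0.692 CPM. Hbb-b1 overlapped as well, at 4.19, 2.37 and 2.83 CPM in S34F against 3.52, 4.12 and 3.58 CPM in WT. Hbb-b2 had the lowest fold change of all members, -0.94 with an SE of 0.70, and rested on 57, 5 and 51 counts in S34F against 52, 84 and 200 in WT. S34F replicate 2 supplied the 5 counts.

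The 2 alpha genes and the 2 beta genes are near-identical copies, and how reads that fit more than one copy were counted is not given in the sources used here, so their split is uncertain. Their junction reads exceeded their gene counts in every library for all 4. The same held for Alad, Urod and Car1, so this excess is not particular to the globins. Hba-a1 was at 6.64, 3.44 and 4.03 junction RPM in S34F and 4.82, 5.03 and 5.49 in WT, and S34F replicate 1 was then the highest of all 6. By this measure Hbb-b2 was at 5.34, 3.95 and 4.54 in S34F against 5.12, 6.13 and 8.61 in WT. The low Hbb-b2 gene count of S34F replicate 2 had no equal in its junction reads.

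Carbonic anhydrases speed the conversion of carbon dioxide to bicarbonate, and Car1 and Car2 are abundant in red cells. Car1 was at 7.94, 9.62 and 11.8 CPM in S34F and at 30.1, 5.56 and 16.1 CPM in WT. WT replicates 1 and 3 lay above every S34F library and WT replicate 2 below every one. The log2 fold change of -0.82 had an SE of 0.52. It was -0.15 without WT replicate 1 and -1.24 without WT replicate 2. Car2 was at 147, 77.1 and 103 CPM in S34F and 148, 106 and 137 CPM in WT, which overlapped, with a log2 fold change of -0.26 (SE 0.23).

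Membrane and cytoskeletal members had a median log2 fold change of -0.59 over the 7 measured of 10, and 6 of the 7 were below 0. None passed an unadjusted p under 0.05. Aqp1, the water channel of the red cell, was at 18.6, 18.2 and 25.0 CPM in S34F and at 58.6, 13.4 and 38.2 CPM in WT. The pattern was that of Car1, with WT replicates 1 and 3 high and WT replicate 2 under all S34F libraries, and the log2 fold change was -0.83 (SE 0.45). It was -0.32 without WT replicate 1 and -1.23 without WT replicate 2.

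Rhag and Rhd, which encode the paired proteins of the Rh complex, were near the limit of detection. Rhag had 8, 32 and 32 counts in S34F and 45, 46 and 89 in WT, or 0.153, 0.690 and 0.634 against 0.816, 0.647 and 0.947 CPM. Rhd had 13, 13 and 15 counts in S34F against 25, 11 and 61 in WT. For both, WT replicates 1 and 3 were above every S34F library in CPM, and WT replicate 2 was not. Ermap, an erythroid membrane protein of the butyrophilin type, had 6, 22 and 44 counts against 89, 7 and 49, and its 95% interval ran from -2.83 to 1.65 on the log2 scale.

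Gypc, the glycophorin that anchors the membrane to its skeleton, was at 42.1, 42.2 and 44.1 CPM in S34F and 46.9, 38.0 and 45.8 CPM in WT. Its 95% interval ran from -0.29 to 0.24 on the log2 scale, and its groups overlapped. The annotation places another gene model of the same name on the same strand over Gypc, and reads could have been shared between them. Tspan33, a tetraspanin of erythroid progenitors, was at 2.60, 2.42 and 3.23 CPM against 4.86, 2.39 and 2.68 CPM, and only WT replicate 1 stood above the rest. Ank1, which ties the spectrin network to the membrane, was at 0.823, 0.971 and 1.47 CPM against 2.08, 0.549 and 0.639 CPM, with a log2 fold change of 0.01 (SE 0.55). In junction reads Ank1 was higher in S34F without overlap, at 0.449, 0.488 and 0.605 RPM against 0.301, 0.384 and 0.290 RPM in WT. These rest on 14 to 26 reads per library. Its locus also holds the gene models Gm15815, Gm15816 and Mir486, with which reads could have been shared.

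The 6 haem synthesis enzymes measured lay close together, with a median log2 fold change of -0.06. Alad, which joins aminolevulinic acid molecules into porphobilinogen in the second step of the pathway (mm9 chr4:62170203-62180952, minus strand), was at 60.4, 57.1 and 52.0 CPM in S34F and at 44.8, 42.4 and 51.0 CPM in WT. It was the one member whose S34F libraries were all above the WT libraries, and S34F replicate 3 and WT replicate 3 nearly met. The log2 fold change was 0.29 (SE 0.11, 95% interval 0.03 to 0.55), with an adjusted p of 0.545 by edgeR's quasi-likelihood test. Junction reads of Alad were also without overlap, at 126, 114 and 106 RPM in S34F against 94.0, 83.7 and 102 in WT. On the authors' deposited FPKM scale Alad overlapped, at 31.4, 23.2 and 27.6 in S34F against 23.9, 24.8 and 33.6 in WT, so its separation depended on the scaling.

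The enzymes after Alad did not show that pattern. Uros, which closes the porphyrin ring, was at 15.2, 16.6 and 14.1 CPM in S34F against 14.2, 17.4 and 18.6 CPM in WT. Urod, which acts next, was at 48.4, 59.3 and 51.2 CPM against 50.7, 64.3 and 67.4 CPM, with a log2 fold change of -0.20 (SE 0.14). Both overlapped. Cpox and Ppox carry out the oxidations before the last step, and their 95% intervals were -0.32 to 0.21 and -0.38 to 0.24. Fech, ferrochelatase, was at 28.8, 33.0 and 31.8 CPM in S34F and 30.8, 33.1 and 32.9 CPM in WT, with an interval of -0.29 to 0.20. These 3 intervals were among the narrowest of the members. Uros and Ppox overlap a gene on the opposite strand, Bccip and B4galt3, and strand use in the counting is not given in the sources used here.

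Among the members that handle iron and haem, Tfrc, the transferrin receptor, was at 239, 294 and 242 CPM in S34F and 191, 250.5 and 206 CPM in WT. The groups overlapped through WT replicate 2, and the log2 fold change was 0.26 (SE 0.14, 95% interval -0.06 to 0.58). Slc25a37, mitoferrin, which carries iron into mitochondria, was at 53.8, 56.8 and 52.1 CPM in S34F against 58.0, 43.1 and 41.2 CPM in WT, where WT replicate 1 was the highest library. Blvrb, a biliverdin reductase of the haem breakdown path, was at 10.1, 11.3 and 11.7 CPM against 13.6, 10.4 and 14.5 CPM, with a log2 fold change of -0.22 (SE 0.16).

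**Figure D2:**
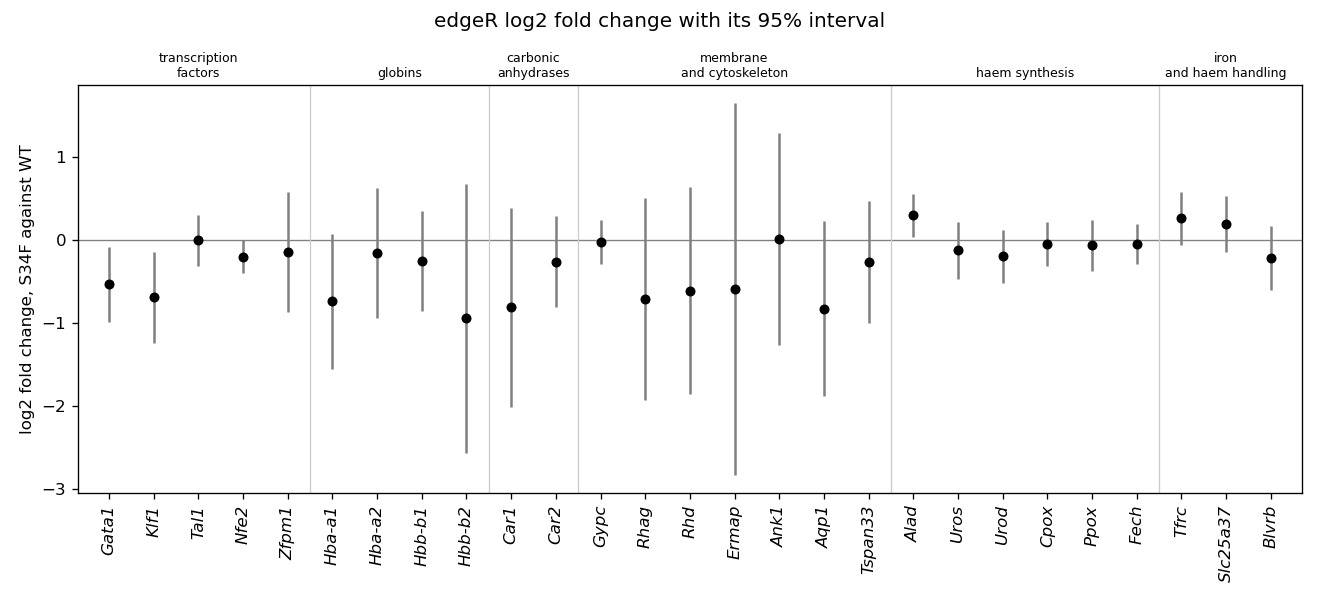
Log2 fold change of S34F against WT for each member, from edgeR on gene counts of 3 libraries per genotype, with its 95% interval as a bar and 0 as the horizontal line. The intervals of Gata1, Klf1, Nfe2 and Alad do not reach 0, those of the haem enzymes are short, and Ermap, at -2.83 to 1.65, has the widest.

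The spread was larger among WT than among S34F libraries in most members, and the reverse was found in the 4 globins, Car2, Rhag, Cpox and Fech. For Car1 the coefficient of variation was 71.5% in WT and 19.8% in S34F, for Aqp1 61.5% and 18.5%, and for Zfpm1 48.7% and 11.01%. For Hba-a1 it was 17.1% in WT and 33.8% in S34F. In 12 of the 27 members WT replicate 1 was the highest and WT replicate 2 the lowest of the 3 WT libraries, which held for 23.4% of all genes. This order was found in 4 of 5 transcription factors, both carbonic anhydrases and 5 of 7 membrane members, and in 0 of 6 haem enzymes. In 8 members all S34F libraries lay under WT replicates 1 and 3 but not under WT replicate 2, against 4.42% of all genes. They were Klf1, Hba-a1, Car1, Gypc, Rhag, Rhd, Aqp1 and Blvrb. These orders were noticed in the data and carry no test.

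**Figure D3:**
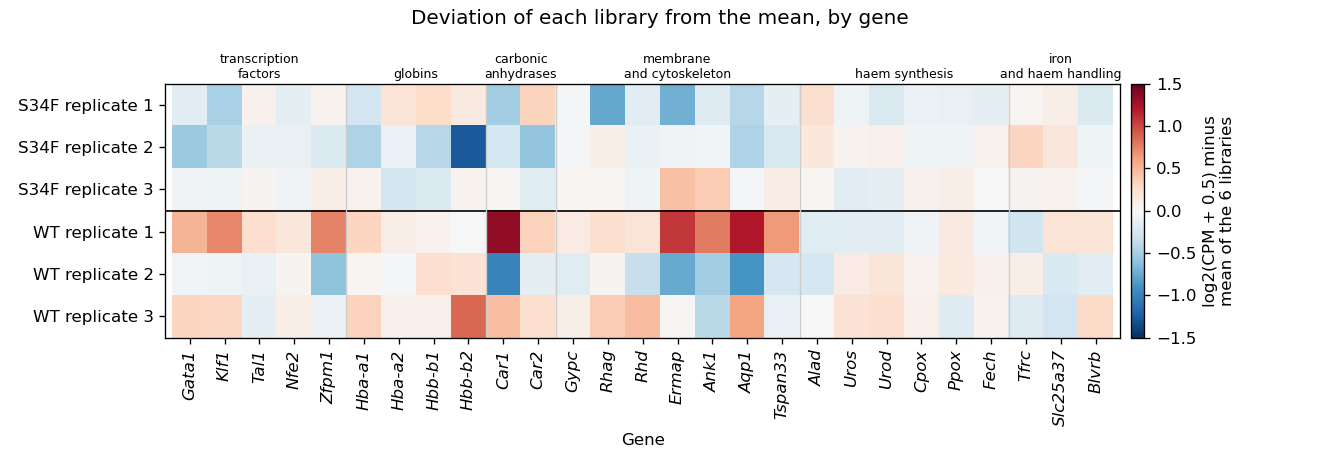
Each library's log2(CPM + 0.5) minus the mean of the 6 libraries, for each member; red is above and blue below that mean. WT replicate 1 is deepest red in Car1, Aqp1 and Ermap and WT replicate 2 deepest blue in Car1, Aqp1 and Ermap, while the columns of the haem enzymes are pale.

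Measured from the WT mean, the median deviation of the members was -0.16 in each S34F library, 0.09 in WT replicate 1, -0.18 in WT replicate 2 and 0.05 in WT replicate 3. Thus one WT library lay as low as the S34F libraries. With all libraries, 2 members did not overlap and were lower in S34F (Gata1 and Nfe2) and 1 was higher (Alad), against 8.47% and 7.16% of all genes. These counts depended on the libraries used, and so did the same counts over all genes.

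Without WT replicate 2, the members' median log2 fold change was -0.31. Then 7 members (25.9%) had an unadjusted p under 0.05, against 5.89% of all genes, and 12 members (44.4%) did not overlap between genotypes, against 24.4%. Without WT replicate 1 the median was -0.15. Then 2 members (7.41%) had such a p, against 26.2% of all genes, and 9 (33.3%) did not overlap, against 45.5%. The members' shares were thus above those of all genes without WT replicate 2 and below them without WT replicate 1. The members at an unadjusted p under 0.05 numbered 2 without S34F replicate 1 (all genes 4.79%), 0 without S34F replicate 2 (6.88%), 4 without S34F replicate 3 (5.97%) and 2 without WT replicate 3 (3.79%). Without both libraries of a number they were 2 for replicate 1 (21.8%), 4 for replicate 2 (3.53%) and 2 for replicate 3 (2.77%). The members without overlap numbered 6 without S34F replicate 1 (22.7%), 4 without S34F replicate 2 (27.4%), 6 without S34F replicate 3 (23.3%) and 4 without WT replicate 3 (19.6%). For both libraries of a number they were 12 (54.3%), 12 (37.6%) and 7 (28.3%).

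Kit followed the same order as these members in WT, highest in replicate 1 and lowest in replicate 2, and Fcgr3 the reverse. Values of markers of other cell types follow. Of 13 dendritic cell genes, 12 had a log2 fold change below 0, DESeq2 called 7 and edgeR called 0. Their summed level was 293 to 472 CPM in S34F and 565 to 727 CPM in WT. Of 13 measured megakaryocyte genes, 10 were below 0 and 0 were called, and the sum was 289 to 331 CPM against 362 to 376 CPM. Itga2b, the platelet integrin that is also a GATA1 target, was at 94.8, 69.8 and 100.4 CPM in S34F and 150.2, 113 and 132 CPM in WT, without overlap. Summed markers of granulocytes and monocytes (16 measured), of mast cells, basophils and eosinophils (11), of lymphoid cells (10) and of stem cells (11) overlapped between genotypes. Log2 fold changes were above 0 for 6 of the 10 lymphoid genes and 7 of the 16 granulocyte and monocyte genes. Single genes within these lists did not all overlap. Klrk1, a receptor of natural killer cells, was at 1.76, 1.14 and 1.92 CPM in S34F and 6.44, 7.61 and 6.04 CPM in WT, with an adjusted p of 3.83e-11 by DESeq2 and 0.183 by edgeR's quasi-likelihood test. Irf8 and Ly86, of the granulocyte and monocyte list, did not overlap between genotypes, with S34F lower and log2 fold changes of -0.42 and -0.44, and neither was called. The part of cell composition, and of the mitochondrial share given above, in the members' values was not tested.

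Other genes of the same pathways were taken from lists apart from the members. Of 24 other haem and iron genes measured, 0 were called by either tool, 15 were below 0, and the median log2 fold change was -0.09. Tfr2, the second transferrin receptor, was at 44.8, 45.1 and 42.4 CPM against 74.3, 50.7 and 52.2 CPM, without overlap. Its adjusted p was 0.538 by edgeR's quasi-likelihood test. Ftl1, the light chain of the iron store ferritin, had a log2 fold change of -0.23 (SE 0.11).

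Of 26 other erythroid regulators, 0 were called, 11 were below 0, and the median was 0.02, so this list did not share the members' median. Epor, the erythropoietin receptor, was at 2.53, 2.91 and 2.99 CPM in S34F and 6.34, 3.12 and 4.44 CPM in WT, without overlap, and its log2 fold change was -0.72 (SE 0.28). Ldb1 and Ssbp3, which encode partners of the GATA1 and TAL1 complex, had log2 fold changes of -0.17 and -0.23. Among 21 measured other membrane and late erythroid genes the median was -0.04 and 12 were below 0. One of them was called by DESeq2, with an adjusted p of 0.0182, and none by edgeR. This was Cd36, the scavenger receptor carried by erythroid progenitors and also by several myeloid cells. It was at 0.134, 0.0863 and 0.139 CPM in S34F and 0.634, 0.647 and 0.692 CPM in WT, from 7, 4 and 7 counts against 35, 46 and 65. Prdx2, the abundant red cell peroxiredoxin, lay in the other direction, at 240.1, 232 and 234 CPM against 218, 153 and 164 CPM. It did not overlap between genotypes and was not called.

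Junction use was asked of the members because U2AF1 acts at the 3' splice site. Each choice was tested as the reads of a junction against those that share its donor or its acceptor, or as reads that include an exon against reads that skip it, in one model over all genes. Members entered 87 tests in 13 genes, of which 32 were acceptor choices, 48 donor choices and 7 cassette exons. edgeR and DESeq2 called 0 of the 87. Over all genes edgeR called 0.0% of acceptor choices, 0.0101% of donor choices and 0.0278% of cassette exons. DESeq2 called 1.27%, 0.813% and 2.07%. At an unadjusted edgeR p under 0.05 there were 4 acceptor, 4 donor and 1 cassette tests in members, against 7.46%, 6.4% and 10.8% of all tests. The genotypes did not overlap in 6 acceptor, 5 donor and 1 cassette tests, against 17.0%, 14.8% and 19.6%. The 9 tests at an unadjusted p under 0.05 share reads and come down to 3 choices, in Fech, Tfrc and Alad.

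The splice sites of the choices in Tfrc, Alad and Ppox are given here, since U2AF1 binds the acceptor AG and the base before it, called position -3. All are from mm9. In acceptors the last 3 intron bases are in capitals, with intron before and exon after. In donors the first 2 intron bases are in capitals, with exon before and intron after. The acceptor of the 103 nt Tfrc exon is chr16:32617163-32617192 and that of the exon after it chr16:32618284-32618313. For the 68 nt exon these are chr16:32624435-32624464 and chr16:32624834-32624863, all on the plus strand. The Alad sites, on the minus strand, are chr4:62172537-62172566 (annotated donor), chr4:62172227-62172256 (donor that is absent from the annotation) and chr4:62171948-62171977 (the acceptor they share). The Ppox acceptors, also on the minus strand, are chr1:173210377-173210406 (major) and chr1:173210393-173210422 (minor).
Tfrc 103 nt exon: ctttattttttatctttTAGcattggtcaa
Tfrc exon after the 103 nt exon: cctaatgtctttaatttTAGggtaaactgg
Tfrc 68 nt exon: taataataattattttaTAGgtactagtaa
Tfrc exon after the 68 nt exon: atgtatttctccttttaCAGgtaaagcatc
Alad annotated donor: ggcaacaggGTataggctggagggcgggga
Alad unannotated donor: aaacaaaagGTgggtggaagctgaggaatg
Alad shared acceptor: cccattggtcttccctaTAGgtctctgtga
Ppox major acceptor: tgagggcttgtggagaaCAGgtttctgaac
Ppox minor acceptor: tagtttctcctcttcctGAGggcttgtgga

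Fech exon 6 of 11, a coding exon of 107 nt (mm9 chr18:64627382-64627488, minus strand), was joined over by 8, 9 and 4 skipping reads in S34F and by 2, 0 and 0 in WT. Skipping was 7.27%, 8.82% and 4.12% in S34F. In WT it was 1.54% in replicate 1, while 0 reads in replicates 2 and 3 allow up to 1.57% and 1.34%. The means were 6.74 ± 2.39% and 0.515 ± 0.892% (SD, n = 3), and every S34F library was above every WT library. These shares use the junctions on both sides of the exon. Tested among junctions that share the donor, the skipping junction had an adjusted p of 0.556 by edgeR's quasi-likelihood test and 0.117 by DESeq2. Tested among junctions that share the acceptor, these were 0.694 and 0.214. The genotypes overlapped in neither test, on 21 skipping reads in S34F and 2 in WT. The filter took the share of a junction over all libraries together, and the WT reads alone would not have met it. This junction thus entered the tests only through S34F, and its lack of overlap is a description only. In the authors' deposited table of junctions, this skipping junction had an adjusted p of 0.192. The skipped exon has T at position -3 of its acceptor and the next exon C.

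Of the Tfrc exons with skipping reads, the 2 of lowest p are described here. Another tested Tfrc exon, of 114 nt (mm9 chr16:32618304-32618417), was included in 95.7 ± 5.83% of reads in S34F and 93.0 ± 6.48% in WT, with overlap. Exon 6 of 19, of 103 nt (mm9 chr16:32617183-32617285), was skipped in 35.7%, 23.0% and 39.3% of S34F junction reads and in 21.4%, 16.9% and 28.9% of WT junction reads. The lowest of the 6 values was thus 16.9%, in a WT library. S34F replicate 2 lay between WT replicates 1 and 3, so the groups overlapped, at 32.7 ± 8.55% against 22.4 ± 6.04%. The adjusted p was 0.532 by edgeR's quasi-likelihood test of the cassette exon, 0.700 among junctions that share the donor and 0.872 among those that share the acceptor. Both its acceptor and the next one end in TAG, as the sequences above show.

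Tfrc exon 14 of 19, of 68 nt (mm9 chr16:32624455-32624522), was skipped in 6.33%, 4.72% and 5.70% of S34F junction reads and 0.826%, 2.39% and 4.16% of WT junction reads. All S34F libraries were above all WT libraries, at 5.58 ± 0.811% against 2.46 ± 1.67%, from 20, 16 and 15 skipping reads against 2, 9 and 21. The adjusted p of the cassette exon was 0.458 by edgeR's quasi-likelihood test and 0.387 by DESeq2. The WT reads alone would not have met the 2% filter of cassette exons, so this exon entered that test only with its S34F reads. Among junctions that share the donor the adjusted p was 0.667 by edgeR's quasi-likelihood test, without overlap. Among junctions that share the acceptor the genotypes overlapped, at 9.39%, 6.90% and 7.54% in S34F against 1.08%, 3.49% and 8.86% in WT, with WT replicate 3 above 2 S34F libraries and an adjusted p of 0.881 by edgeR's quasi-likelihood test. Here the skipped exon has a TAG acceptor and the following exon a CAG. The Fech exon and the 103 and 68 nt Tfrc exons are coding, and none of these 3 has a length that is a multiple of 3.

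In Alad, a donor that is absent from the annotation was joined to an annotated acceptor. It had 8 of 565, 10 of 405 and 7 of 345 reads of that acceptor in S34F, and 2 of 392, 1 of 463 and 3 of 719 in WT. These are 1.42%, 2.47% and 2.03% against 0.510%, 0.216% and 0.417%, without overlap. The share of 1% that a choice needed was taken over all libraries together. Every WT library was under it, so this donor entered the test only through its S34F reads. The lack of overlap is thus partly set by that filter and is a description only. The adjusted p was 0.563 by edgeR's quasi-likelihood test and 0.231 by DESeq2. At 1.97 ± 0.529% in S34F and 0.381 ± 0.150% in WT, it was a small share of Alad reads in both genotypes.

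**Figure D4:**
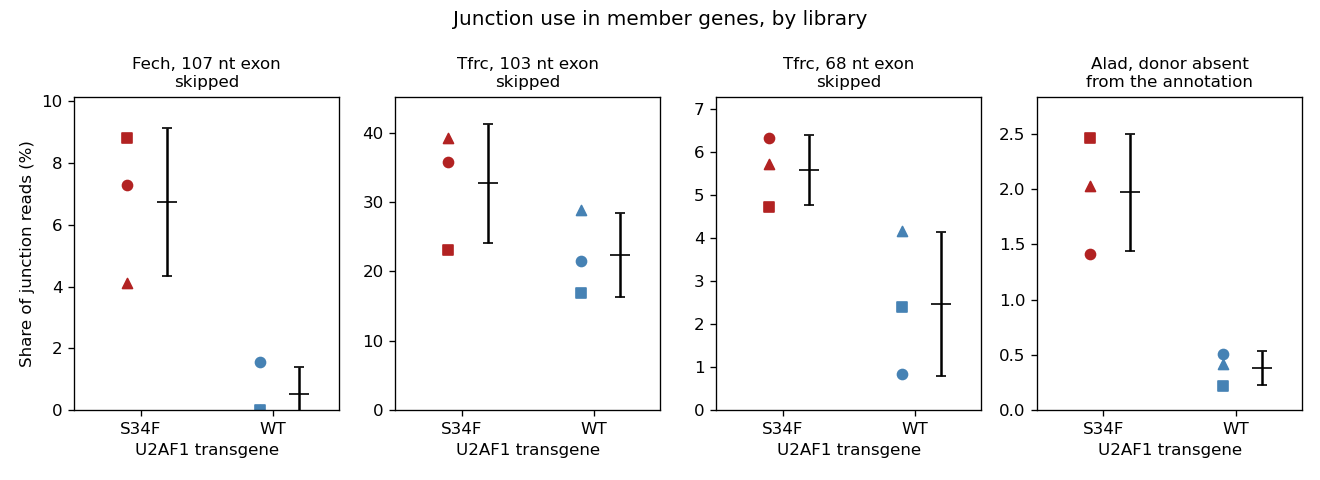
Share of junction reads in percent, by library, for skipping of the 68 and 103 nt Tfrc exons and the Fech exon, and for the unannotated Alad donor. Red is S34F and blue WT, with a marker shape for each replicate number. The black bars give mean ± SD of 3 libraries. The y axes differ between panels and start at 0, where the lower part of the Fech WT bar is cut off and where WT replicates 2 and 3 coincide; the 103 nt Tfrc exon is the panel in which the genotypes overlap.

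None of the other donor choices in members was called. Uros used 3 first-exon donors at 66.0, 27.6 and 6.33% of reads in S34F and 65.6, 27.5 and 6.93% in WT. Alad used its main first-exon donor for 85.2 ± 5.72% of reads in S34F and 87.1 ± 5.47% in WT. At a Gata1 acceptor (mm9 chrX:7540367), the nearer donor (mm9 chrX:7541085) had 3.20 ± 3.07% in S34F against 6.75 ± 3.15% in WT. A farther donor (mm9 chrX:7544893) had the rest, and the genotypes overlapped. A minor Nfe2 donor (mm9 chr15:103082838) had 4.17 ± 0.903% in S34F and 2.42 ± 0.889% in WT, without overlap, with an adjusted p of 0.804 by edgeR's quasi-likelihood test. A Ppox donor absent from the annotation had 2.57 ± 2.26% in S34F and 9.20 ± 6.61% in WT, with overlap. A Ppox acceptor that ends in GAG, not annotated, had 4 of 48, 0 of 31 and 4 of 64 reads in S34F against 18 of 75, 14 of 98 and 9 of 158 in WT. It overlapped, and 0 of 31 reads allow up to 9.68%.

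Over the 150 acceptors of the members, 65.3% ended in CAG, 30.7% in TAG, 3.33% in AAG and 0.667% in GAG. Over the 128078 acceptors of all genes these were 62.7%, 30.6%, 6.33% and 0.327%. The skipped Fech exon, both Tfrc exons of lowest p and the shared Alad acceptor have T at this base. They were chosen by their p-values and by reads, and the share among them was not tested.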

How the data were processed

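Gene and splice junction tables from 6 RNA-seq libraries were used. Per the labels' protocols, ribosomal RNA was removed and stranded libraries were read in pairs. Per the submitters' processing notes, reads went to build mm9, and the tools named are HTSeq 0.5.4p1, TopHat2 2.0.8 with Bowtie2 2.1.0, DESeq2 1.6.1, and also Cufflinks 2.1.1. For annotation, strand use and reads that fit several places, the answer is "not given in the sources used here". Values in the deposited gene and junction tables are raw counts. The authors' FPKM values, made per length, were used to order genes within WT and, for Alad, beside the CPM. The authors' deposited log2 fold change, fold ratio and p-value columns were quoted only where named.

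Gene counts were tested with edgeR 4.0.16 (R 4.3.3) by the quasi-likelihood test with TMM scaling and filterByExpr, over all genes, with Benjamini-Hochberg adjustment and a threshold of 0.05. CPM values use the TMM library sizes. Junction choices were tested in the same tool as 2 counts per library, with a library term, a form term and their genotype interaction. Each choice needed 20 reads per library and a share of 1% (2% for cassette exons of 10 to 1000 nt). That share was taken over all libraries together, so a choice could pass through the reads of a single genotype. Printed junction positions are exon bases in mm9, and exons were numbered by GENCODE vM1. Limits for 0 reads allow 3 reads and, like the SD, cover no error of mapping. DESeq2 1.42.0 and limma 3.58.1 were alternatives.

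The members and lists were chosen with earlier results of these data known. All 27 measured members are described. From the other lists, genes are named by an adjusted p under 0.05 in either tool, by being among the 3 lowest p-values of a list, or as one of the 2 most abundant of a marker list. Some genes that this rule names are not reported here. The splice choices described at length, by a rule written after their values were seen, are the 3 single-exon skips of lowest p and the unannotated donor of lowest p. Replicate numbers were not used for pairing in the main fits, since no label says that a number marks a shared donor, litter or day. Same-numbered libraries correlated at 0.208, 0.272 and 0.0242, and the other pairs at -0.289 to 0.0785. Whether the numbers mark pairs is thus not known. Libraries were pools of mice, so p-values measure the spread between pools. An exact permutation test of 3 against 3 cannot go below 0.1 and was not used.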

Additional observations from a re-analysis of the deposited data

How the results depend on the processing

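Of the 27 members, 17 kept the sign of their log2 fold change under all 15 alternatives (DESeq2, RLE scaling, no filter, the globin and mitochondrial genes out of the scaling, the replicate block with either tool, and each library or number left out). With single libraries or numbers left out, the range was -0.53 to 0.15 for Tspan33, -0.23 to 0.0037 for Uros, -0.41 to 0.31 for Zfpm1, -1.53 to 1.09 for Ermap, -0.43 to 0.040 for Hba-a2, -0.24 to 0.023 for Ppox, -0.090 to 0.0058 for Fech, -0.11 to 0.044 for Gypc, -0.11 to 0.13 for Tal1 and -0.55 to 1.03 for Ank1. Over the same alternatives Gata1 ranged from -0.68 to -0.40, Klf1 from -0.87 to -0.37 and Alad from 0.22 to 0.42. The members' median was -0.31 to -0.12, the number of members at an unadjusted p under 0.05 was 0 to 7, and the number without overlap was 4 to 12. Over all genes the shares in the same fits were 2.77 to 26.2% and 19.6 to 54.3%, so these counts of members are not comparable between settings. No member was called when libraries or numbers were left out.

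Over all genes, edgeR called 0, DESeq2 called 96, and leaving out libraries gave 0 to 1172, the highest without WT replicate 1, 599 without replicate 1 of both genotypes and 1 without S34F replicate 3. DESeq2 called 373 acceptor choices, 242 donor choices and 97 cassette exons where edgeR called 0, 3 and 2. limma called 58, 65 and 0. Leaving out libraries gave 0 to 5 donor choices and 0 cassette exons. The causes were not tested.

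Same-numbered libraries 1 and 2 correlated best with each other and libraries 3 did not, so the correlations do not settle whether the numbers mark pairs. With the replicate block, edgeR called 5 genes and DESeq2 444, of which 1 was a member (Gata1, log2 fold change -0.53, adjusted p 0.0385). Under the block Tal1 was 0.0021 with edgeR and 0.0047 with DESeq2, and Ermap was 0.021 with DESeq2. edgeR and limma with the block called 0 acceptor choices, 0 donor choices and 0 cassette exons. No junction choice in a member was called under any alternative in which it was tested. The unannotated Alad donor was tested in 9 alternatives, against 12 for the other choices described at length. Without any of the S34F libraries its share fell under 1%, and it was not tested there. Depth limits the Fech, Alad and 68 nt Tfrc choices, which rest on 0 to 21 reads per library.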
